A study of Arabidopsis thaliana with 6 samples.

Results

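Cytochrome P450s, UDP-dependent glycosyltransferases (UGTs) and glutathione transferases of Arabidopsis thaliana were followed over vip5 mutant, vip6 mutant and wild type plants. Their probe sets were chosen by name: the single gene symbol that the platform annotation pairs with a probe set begins with CYP plus a digit, UGT plus a digit, GSTU, GSTF or GSTZ. The anthocyanin genes UGT75C1 and UGT78D2 and the aliphatic glucosinolate genes CYP83A1, CYP79F1 and CYP79F2 were set aside by name. This took out 1 probe set. Of 22746 probe sets without controls, 84 met the rule, and each matched a different locus. The rule itself uses names alone.

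Total RNA of plants 3 weeks old was hybridised to oligonucleotide arrays, with 2 arrays for vip5, 2 for vip6 and 2 for wild type (WT). VIP5 is the plant counterpart of yeast Rtf1 and VIP6 that of Ctr9, both subunits of the Paf1 complex that accompanies RNA polymerase II. The labels give no strain, mutant allele, growth condition or tissue, and nothing in them tells whether both RNAs of a group were grown apart. The p-values below thus speak of array-to-array spread alone, and that spread may be technical. In RNA from whole samples, fewer cells of a type and less RNA per cell cannot be told apart.

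P450s are haem enzymes, most of which insert an oxygen atom into small molecules such as hormones, phenolics, fatty acids and defence compounds. UGTs move a sugar onto such molecules, which often inactivates a hormone or readies a compound for storage in the vacuole. Glutathione transferases (GSTs) join glutathione to reactive or foreign molecules, and the tau (GSTU) and phi (GSTF) classes are the large plant-specific ones. Many members of these families lie in tandem rows of near-identical genes, and whether a probe set also binds a neighbour's transcript was not tested.

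The 84 probe sets were 46 UGTs, 12 GSTs (11 of class tau, 1 of class phi and 0 of class zeta), 24 P450s and 2 that are no P450. CYP59 (AT1G53720) and CYP71 (AT3G44600) carry symbols that fit the rule, but the TAIR10.1 gene table lists them as cyclophilins, a family of prolyl isomerases that shares the abbreviation. They are kept apart below, which leaves 82 enzyme members. Of the P450s, 19 belong to the CYP71B subfamily, so P450s in general are thinly covered. The TAIR10.1 table holds 241 genes whose symbol is CYP plus a digit, 58 UGT genes and 41 GSTU, GSTF or GSTZ genes. Of the role lists for brassinosteroid, jasmonate, carotenoid and cutin enzymes, 0 members were paired with a probe set.

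A probe set was tested if it exceeded the 40th percentile of its array (an intensity between 100.8 and 111.1) on at least 2 of the 6 arrays. This kept 36 of the 82 enzymes (11 P450s, 19 UGTs and 6 GSTs) and both cyclophilins. Values below are deposited intensities, and differences are on the log2(intensity + 39.4) scale, on which dim probe sets appear to differ less than they do. The intensity of one probe set cannot be set against that of another, because probes bind with different strength.

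In limma, over 14323 probe sets, 0 of the 38 tested members passed an adjusted p of 0.05 in vip5 against WT, where 0.0768% of all tested probe sets passed, and 0 in vip6 against WT, where 0.105% passed. At an unadjusted p under 0.05, 7 enzymes lay below WT in vip5 (5.82% of all tested probe sets did) and 2 above it (5.12%). In vip6, 4 lay below (5.32% of all) and 2 above (4.56%). None of these holds after the correction over all tested probe sets.

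The tested enzymes lay more often below WT than above it. In vip5, 25 of 36 had a log2 difference under 0, which is 69.4%, against 50.6% of all tested probe sets. In vip6, 27 of 36 did, which is 75%, against 51.8% of all. The median log2 difference of the 36 was -0.19 in vip5 and -0.19 in vip6, beside -0.004 and -0.012 over all tested probe sets. Both mutant arrays lay below both WT arrays for 13 enzymes in vip5 (36.1%, against 20.8% of all) and for 15 in vip6 (41.7%, against 20.8%). The opposite, both mutant arrays above both WT arrays, held for 2 enzymes in vip5 (5.56%, against 20% of all) and the same number in vip6 (5.56%, against 19.2%). Both comparisons use the same WT arrays, and enzymes of one tandem row may share signal, so these counts are a description without a test. Among the lower enzymes, CYP84A4 and GSTU23 passed the filter only with the help of WT arrays, where they are brighter. With the dim probe sets included, the groups were apart downward for 24 of 82 enzymes in vip5, where 19.4% of all probe sets were, and for 28 in vip6, where 20.9% were. They were apart upward for 7 in vip5 and 5 in vip6, where 18.8% and 16.7% of all probe sets were.

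Transcripts that mark an organ were sparsely named, and both root ones lay below WT. Of 9 root genes, 2 have a named probe set. PYK10, a root beta-glucosidase of ER bodies, had 896.7 and 607.1 on the vip5 arrays, 716.8 and 869.2 on the vip6 arrays, against 1094.4 and 1084.8 in WT. EXPA7, a root hair expansin that was too dim to test, had 15.2 and 6.9 on the vip5 arrays, 10.7 and 10.3 on the vip6 arrays, against 51.1 and 33.0 in WT. Every mutant array was below both WT arrays for the pair. With dim probe sets included, 19.4% of all probe sets were apart downward in vip5 and 20.9% in vip6. PYK10 did not pass in either mutant (limma adjusted p = 0.45 in vip5 and 0.576 in vip6). The part of root RNA in the lower enzyme values was not tested. The anther gene AT5G07230 is the 1 floral gene of 9 with a named probe set. It had 199.0 and 168.2 on the vip5 arrays, 143.7 and 195.6 on the vip6 arrays, against 159.9 and 162.7 in WT. Its vip5 arrays lay above both WT arrays, as for 20% of all tested probe sets, and its vip6 arrays on either side of them. Of 5 leaf genes only RCA, which encodes Rubisco activase, is named by a probe set. It had 24526.6 and 46439.9 on the vip5 arrays, 20305.3 and 38063.0 on the vip6 arrays, against 22676.3 and 32585.0 in WT. Its groups overlapped in both mutants. Of 7 seed genes, 0 are named by a probe set.

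**Figure D1:**
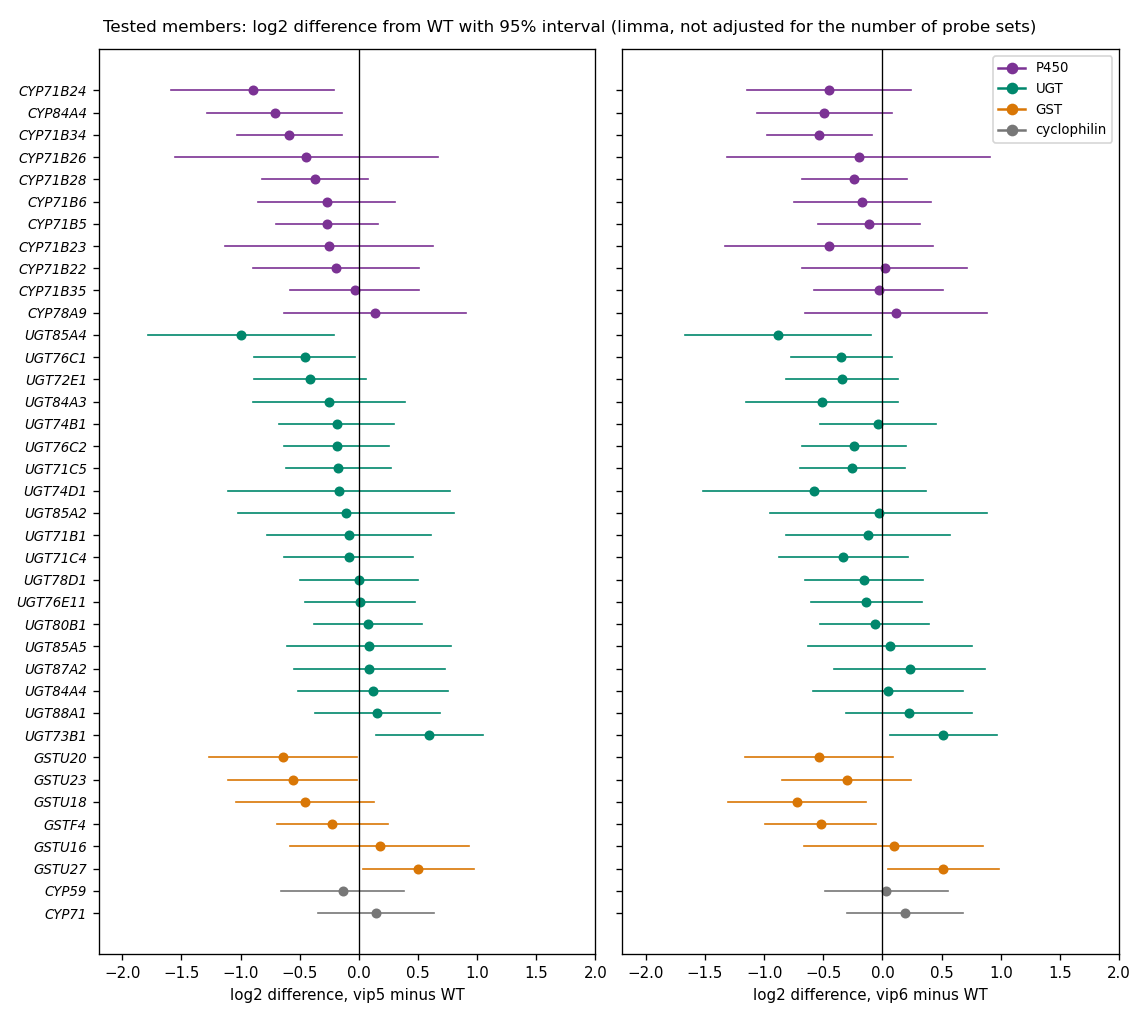
The log2 difference from WT of the 38 tested members in vip5 (left) and vip6 (right), with limma's unadjusted 95% interval; colours mark P450s, UGTs, GSTs and the 2 cyclophilins. The points of 25 of 36 enzymes in vip5 and 27 of 36 in vip6 lie left of 0. The intervals of 9 enzymes in vip5 and 6 in vip6 leave 0 out.

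Among the P450s, 10 of 11 tested members had a log2 difference under 0 in vip5 and 9 of 11 in vip6, with medians of -0.27 and -0.20. Of all tested probe sets, 50.6% and 51.8% were under 0. Most of the 11 are of 1 subfamily: 9 are CYP71B, of which 9 were under 0 in vip5 and 8 in vip6. Outside it, CYP84A4 lay below WT and CYP78A9 above it on average. None of the 11 had both mutant arrays above both WT arrays (all tested probe sets: 20% in vip5, 19.2% in vip6), while 5 in vip5 and 4 in vip6 had both below (all: 20.8% in each). The tested P450 farthest below WT in vip5 was CYP71B24 (AT3G26230), one of the many CYP71B genes. It had intensities of 124.3 and 54.7 on the vip5 arrays, 121.1 and 139.0 on the vip6 arrays, against 236.0 and 154.8 in WT. All 4 mutant arrays were below both WT arrays, and the second vip5 array was the dimmest. Its log2 difference was -0.90 in vip5 (standard error 0.30, limma adjusted p = 0.355) and -0.45 in vip6 (adjusted p = 0.683). Without vip5 replicate 2 the difference in vip5 was -0.50, and without WT replicate 1 that in vip6 was -0.20.

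CYP71B34 (AT3G26300) had close values in both mutants. Its intensities were 256.6 and 251.2 on the vip5 arrays, 300.9 and 232.9 on the vip6 arrays, against 419.3 and 384.4 in WT. The mutant arrays stayed clear of the WT arrays. The log2 difference was -0.59 in vip5 (limma adjusted p = 0.346, the lowest of all members) and -0.53 in vip6 (adjusted p = 0.423), with 95% intervals of -1.03 to -0.15 and -0.98 to -0.09.

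CYP84A4 (AT5G04330) is a paralogue of ferulate 5-hydroxylase that acts in the synthesis of arabidopyrones, pyrone compounds made from phenylpropanoids. It had 68.6 and 81.9 on the vip5 arrays, 66.0 and 128.8 on the vip6 arrays, against 147.5 and 148.4 in WT. The WT arrays were nearly equal, and the vip6 arrays spread widely below them. The log2 difference was -0.71 in vip5 (limma adjusted p = 0.375) and -0.49 in vip6 (adjusted p = 0.567). Leaving out vip6 replicate 1 brought the vip6 difference to -0.16.

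CYP71B28 (AT1G13090) averaged 420.4 ± 61.9 in vip5, 461.9 ± 5.59 in vip6 and 553.3 ± 63.5 in WT (SD, n = 2 each). Its mutant arrays also lay below both WT arrays, by log2 differences of -0.37 and -0.24. CYP71B5 (AT3G53280) was apart from WT in vip5 only, at 168.0 and 146.7 on the vip5 arrays, 175.0 and 183.9 on the vip6 arrays, against 219.2 and 178.3 in WT. CYP71B6 (AT2G24180), an enzyme of indole metabolism that acts on indole-3-acetonitrile, averaged 589.9 ± 123.0 in vip5, 638.2 ± 154.0 in vip6 and 719.7 ± 134.0 in WT, and its groups overlapped. CYP78A9 (AT3G61880), of a subfamily that promotes organ growth and known for fruit size, was the tested P450 above WT on average in both mutants. It had 213.3 and 360.2 on the vip5 arrays, 189.4 and 387.1 on the vip6 arrays, against 250.8 and 247.5 in WT, so that in each mutant one array lay below WT and one above.

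**Figure D2:**
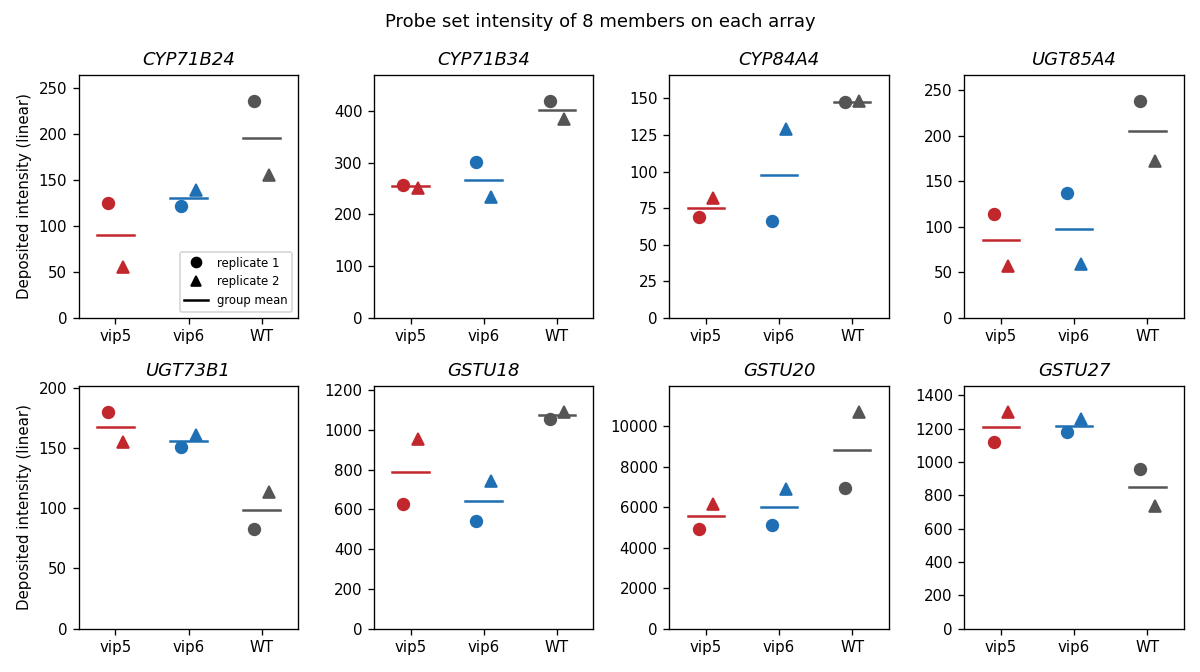
Deposited intensity (linear axes from 0) of 8 members on each array of vip5, vip6 and WT; circles are replicate 1, triangles replicate 2 and lines the group means. In UGT73B1 and GSTU27 all 4 mutant arrays lie above both WT arrays, and in the other 6 members below.

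Among the tested P450s, 6 stand in 2 tandem rows on chromosome 3, and their differences were uneven. In gene order they are CYP71B22, CYP71B23, CYP71B24, CYP71B26, CYP71B34 and CYP71B35. Their log2 differences in that order were -0.19, -0.25, -0.90, -0.44, -0.59 and -0.03 in vip5, and 0.02, -0.45, -0.45, -0.20, -0.53 and -0.03 in vip6. Only CYP71B24 and CYP71B34 had mutant arrays clear of WT. CYP71B35, the next tested member after CYP71B34 in gene order, had 142.3 and 164.1 on the vip5 arrays, 146.3 and 160.8 on the vip6 arrays, against 120.3 and 203.3 in WT, with the WT arrays outside the mutant ones on either side.

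The same rows held large differences between the arrays of a group. CYP71B26 (AT3G26290) had 431.2 and 875.7 on the vip5 arrays, 526.0 and 1026.9 on the vip6 arrays, against 561.7 and 1285.2 in WT, so replicate 2 was 1.95 to 2.29 times as bright as replicate 1 in every group. CYP71B23 (AT3G26210) went the other way, with 188.6 and 81.0 on the vip5 arrays, 156.3 and 66.5 on the vip6 arrays, against 182.6 and 135.7 in WT. In CYP71B26 the difference between the arrays of each group was larger than any difference between groups, and in CYP71B23 this held for both mutants.

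**Figure D3:**
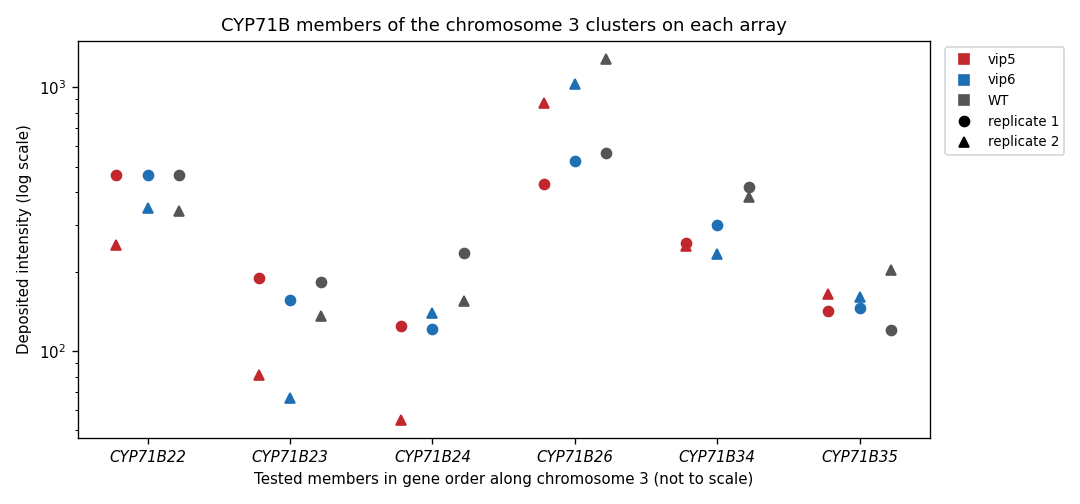
Deposited intensity (log axis) of the 6 tested CYP71B members of the chromosome 3 rows, in gene order, on each array; colours mark vip5, vip6 and WT, circles replicate 1 and triangles replicate 2. CYP71B26 and CYP71B35 are brighter and CYP71B22, CYP71B23 and, by less, CYP71B34 are dimmer on replicate 2 in all 3 groups. In CYP71B24 and CYP71B34 all mutant points lie below both WT points.

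The UGTs lay closer to WT, with median log2 differences of -0.09 in vip5 and -0.13 in vip6. In vip5, 11 of 19 tested members were under 0 and in vip6, 14 of 19. Both mutant arrays were below both WT arrays for 4 in vip5 and 7 in vip6 (20.8% of all tested probe sets in each), and above for 1 in each (20% and 19.2% of all). Among tested members UGT85A4 (AT1G78270) had the largest log2 difference in both mutants. It had 114.6 and 57.0 on the vip5 arrays, 137.1 and 59.2 on the vip6 arrays, against 238.6 and 172.9 in WT. The brightest mutant array was below the dimmest WT array, and replicate 2 was the dimmer array in each group. The log2 difference was -1.00 in vip5 (standard error 0.34, limma adjusted p = 0.366) and -0.88 in vip6 (adjusted p = 0.458). With single arrays left out, the vip5 value lay between -1.33 and -0.66 and the vip6 value between -1.30 and -0.46. Of its subfamily, 4 other genes met the rule. The tested ones, UGT85A2 and UGT85A5, overlapped WT. UGT85A2 had a log2 difference of -0.11 in vip5 and -0.03 in vip6, and UGT85A5 had 0.08 in vip5 and 0.06 in vip6. UGT85A7, too dim to test, had 69.9 and 6.4 on the vip5 arrays, 90.4 and 46.5 on the vip6 arrays, against 105.2 and 102.9 in WT. All its mutant arrays were thus below WT, by log2 differences of -1.02 in vip5 and -0.44 in vip6, while the dim UGT85A3 overlapped WT. The vip5 value of UGT85A7 rests largely on the second vip5 array, at 6.4. Within replicate 1 its vip5 difference was -0.40, and within replicate 2 it was -1.64.

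UGT73B1 (AT4G34138) was the one tested UGT with all mutant arrays above both WT arrays. Its intensities were 180.2 and 155.1 on the vip5 arrays, 150.8 and 160.9 on the vip6 arrays, against 82.5 and 113.7 in WT. The dimmest mutant array, 150.8 in vip6, stood well clear of WT. The log2 difference was 0.60 in vip5 (standard error 0.20, limma adjusted p = 0.352) and 0.51 in vip6 (adjusted p = 0.452). Of its subfamily, only UGT73B4 and UGT73B5, on another chromosome, also met the rule. Both were too dim to test, at up to 36.6 on any array.

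Hormone-conjugating UGTs of the role lists were represented by 4 tested enzymes, all with log2 differences under 0 in both mutants. Of all tested UGTs, 11 of 19 were under 0 in vip5 and 14 of 19 in vip6. Of all tested probe sets, 50.6% and 51.8% were. UGT76C1 and UGT76C2, adjacent genes whose products glucosylate cytokinins at nitrogen, lay below both WT arrays on every mutant array. UGT76C1 (AT5G05870) had 175.7 and 163.5 on the vip5 arrays, 166.8 and 207.7 on the vip6 arrays, against 240.9 and 254.7 in WT. UGT76C2 (AT5G05860) had 189.8 and 141.6 on the vip5 arrays, 157.4 and 156.4 on the vip6 arrays, against 190.2 and 195.1 in WT, so the first vip5 array nearly touched WT. The log2 differences of UGT76C1 were -0.46 in vip5 and -0.35 in vip6 (limma adjusted p = 0.433 and 0.589), and those of UGT76C2 were -0.19 and -0.24. Without vip5 replicate 2 the vip5 difference of UGT76C2 was -0.02. UGT71C5 (AT1G07240), which forms the glucose ester of abscisic acid, averaged 361.4 ± 57.6 in vip5, 337.9 ± 15.9 in vip6 and 410.9 ± 33.2 in WT (SD, n = 2 each). Its groups overlapped in vip5 and were apart in vip6. UGT74D1 (AT2G31750), which glucosylates auxins, had 452.2 and 753.2 on the vip5 arrays, 279.4 and 656.3 on the vip6 arrays, against 537.8 and 813.8 in WT, with log2 differences of -0.17 and -0.57 and overlapping groups.

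UGTs of phenolic metabolism gave small and mixed differences. UGT72E1 (AT3G50740), a glucosyltransferase of monolignol-related aldehydes, had 231.9 and 164.6 on the vip5 arrays, 220.0 and 195.2 on the vip6 arrays, against 264.5 and 283.0 in WT. Its mutant arrays lay below WT, by log2 differences of -0.41 and -0.34 (limma adjusted p = 0.524 and 0.641), and the vip5 one was -0.21 without vip5 replicate 2. UGT84A3 (AT4G15490) forms glucose esters of hydroxycinnamic acids and had log2 differences of -0.25 in vip5 and -0.51 in vip6, with groups apart in vip6. UGT84A4, the next gene, had 0.12 and 0.04 with overlapping groups. UGT78D1 (AT1G30530), the flavonol 3-O-rhamnosyltransferase, averaged 752.1 ± 180.0 in vip5, 660.8 ± 73.0 in vip6 and 740.7 ± 19.7 in WT. Its log2 differences were 0.002 in vip5 and -0.16 in vip6, and its 95% intervals of -0.50 to 0.50 and -0.66 to 0.34 leave out a 2-fold change. Both vip6 arrays lay below both WT arrays.

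UGT74B1 (AT1G24100), which adds the sugar in glucosinolate synthesis, averaged 1705 ± 128.0 in vip5, 1901 ± 162.0 in vip6 and 1969 ± 422.0 in WT. Its log2 differences were -0.19 and -0.04. The sterol glucosyltransferase UGT80B1 (AT1G43620) had 0.08 in vip5 and -0.07 in vip6. UGT87A2 (AT2G30140), known as a regulator of flowering time, averaged 341.1 ± 130.0 in vip5, 372.1 ± 83.5 in vip6 and 308.5 ± 28.5 in WT, with log2 differences of 0.09 and 0.23 and overlapping groups; it was chosen for mention after its values were seen. Of the members with the brightest probe sets, UGT88A1 averaged 4877 ± 1070.0 in vip5, 5103 ± 981.0 in vip6 and 4320 ± 166.0 in WT. UGT71C4 averaged 1359 ± 4.67 in vip5, 1164 ± 337.0 in vip6 and 1448 ± 189.0 in WT. Both overlapped WT. The remaining tested UGTs, UGT71B1 and UGT76E11, had log2 differences between -0.14 and 0.01 in the 2 mutants.

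Of the 6 tested GSTs, 4 had both mutant arrays below both WT arrays in each mutant, where 20.8% of all tested probe sets did. Among the 4, GSTU23 would not have been tested on its mutant arrays alone. The 1 GST with both above is near the share of all probe sets, 20% in vip5 and 19.2% in vip6. GSTU20 (AT1G78370), a tau class enzyme that takes part in glucosinolate synthesis and binds the jasmonate-conjugating enzyme FIN219, had 4937.4 and 6150.1 on the vip5 arrays, 5089.1 and 6903.6 on the vip6 arrays, against 6924.8 and 10712.8 in WT. The brightest vip6 array came close to the dimmer WT array. Its log2 difference was -0.64 in vip5 (standard error 0.27, limma adjusted p = 0.449) and -0.54 in vip6 (adjusted p = 0.573), and -0.33 and -0.22 without WT replicate 2.

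GSTU18 (AT1G10360) had 624.2 and 953.9 on the vip5 arrays, 542.7 and 743.2 on the vip6 arrays, against 1052.9 and 1091.2 in WT. The WT arrays lay within a narrow range above all mutant arrays. Its log2 difference was -0.45 in vip5 (limma adjusted p = 0.573) and -0.72 in vip6 (adjusted p = 0.406), and the vip5 one was -0.16 without vip5 replicate 1. GSTU23 (AT1G78320), a neighbour of GSTU20, had 59.5 and 93.5 on the vip5 arrays, 77.7 and 120.9 on the vip6 arrays, against 137.0 and 122.0 in WT, with log2 differences of -0.56 and -0.30. The second vip6 array lay just under the second WT array. Without vip6 replicate 1 the vip6 difference was -0.07. GSTF4 (AT1G02950), the phi class member, had 128.4 and 184.4 on the vip5 arrays, 123.8 and 112.9 on the vip6 arrays, against 185.3 and 188.9 in WT. Its second vip5 array lay just under the WT arrays, and the log2 differences were -0.23 in vip5 (limma adjusted p = 0.747) and -0.52 in vip6 (adjusted p = 0.46). Without vip5 replicate 1 the vip5 difference was -0.02.

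GSTU27 (AT3G43800) lay on the other side of WT. It had 1117.6 and 1302.5 on the vip5 arrays, 1177.9 and 1258.8 on the vip6 arrays, against 960.7 and 733.6 in WT. All 4 mutant arrays were above both WT arrays and close to each other. The log2 difference was 0.50 in vip5 (standard error 0.20, limma adjusted p = 0.435) and 0.52 in vip6 (adjusted p = 0.469), and 0.32 and 0.33 without WT replicate 2. GSTU16 (AT1G59700) overlapped WT, with 367.8 and 656.8 on the vip5 arrays, 366.6 and 584.5 on the vip6 arrays, against 509.0 and 365.8 in WT.

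The cyclophilins CYP59 and CYP71 are nuclear proteins, one known to bind the tail of RNA polymerase II and the other a WD40 protein with a part in histone H3 methylation. CYP59 had 97.2 and 103.9 on the vip5 arrays, 113.2 and 123.2 on the vip6 arrays, against 87.5 and 147.4 in WT. CYP71 had 424.8 and 397.8 on the vip5 arrays, 433.7 and 417.3 on the vip6 arrays, against 305.5 and 441.8 in WT. In both genes every mutant array fell between the WT arrays, and the log2 differences lay between -0.14 and 0.19.

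Set against each other, vip6 and vip5 could not be separated for any member. In limma, 0 of 38 passed, where 0% of all tested probe sets did, and 0 members had an unadjusted p under 0.05, against 0.761% of all above and 0.775% below. Differences between replicate numbers correlated at 0.655 between the mutants. The fit leaves this out, so it may miss differences between them. With the replicate number as a block, 0 of 38 passed, where 0.00698% of all tested probe sets did. The arrays of the mutants were apart for CYP59 and CYP71B5, both higher in vip6, and for GSTF4, lower in vip6, where 12.2% and 13.4% of all tested probe sets were apart upward and downward. Among tested members CYP71B24 had the highest log2 difference, vip6 minus vip5, at 0.45 with a 95% interval of -0.24 to 1.14, and UGT74D1 the lowest, at -0.41 with an interval of -1.35 to 0.53. The intervals of both genes hold a 2-fold difference. For CYP71B34 the interval was -0.39 to 0.50, for UGT73B1 -0.54 to 0.37 and for GSTU27 -0.46 to 0.49. Of the 36 enzymes 17 had a difference under 0, which is 47.2%, against 51.6% of all tested probe sets. With the dim ones included, 3 of 82 were apart upward (12% of all) and 13 downward (15.8%).

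In both mutants, but hardly in WT, the arrays of a group differed more in these enzymes than over all probe sets. The median absolute log2 difference between replicate 2 and replicate 1 of the 36 enzymes was 0.41 in vip5, 0.39 in vip6 and 0.23 in WT, beside 0.25, 0.23 and 0.22 over all tested probe sets. For the UGTs it was 0.34 in vip5, 0.37 in vip6 and 0.15 in WT, the WT value lying below that of all probe sets. Replicate 2 was brighter in all 3 groups for 8 enzymes, where 21.2% of all probe sets were, and dimmer in all 3 for 7, where 21.6% were. For 14 enzymes both mutants differed one way and WT the other, where 26% of all probe sets did so, and 10 of these 14 were UGTs. UGT85A2 (AT1G22360) shows the pattern, with 530.0 and 246.0 on the vip5 arrays, 555.8 and 264.4 on the vip6 arrays, against 388.7 and 401.5 in WT. In each mutant one array lay above WT and one below. UGT71B1 ran the opposite way, with 384.9 and 655.0 on the vip5 arrays, 384.1 and 622.3 on the vip6 arrays, against 549.6 and 524.4 in WT. The labels do not say what the replicate numbers mark.

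**Figure D4:**
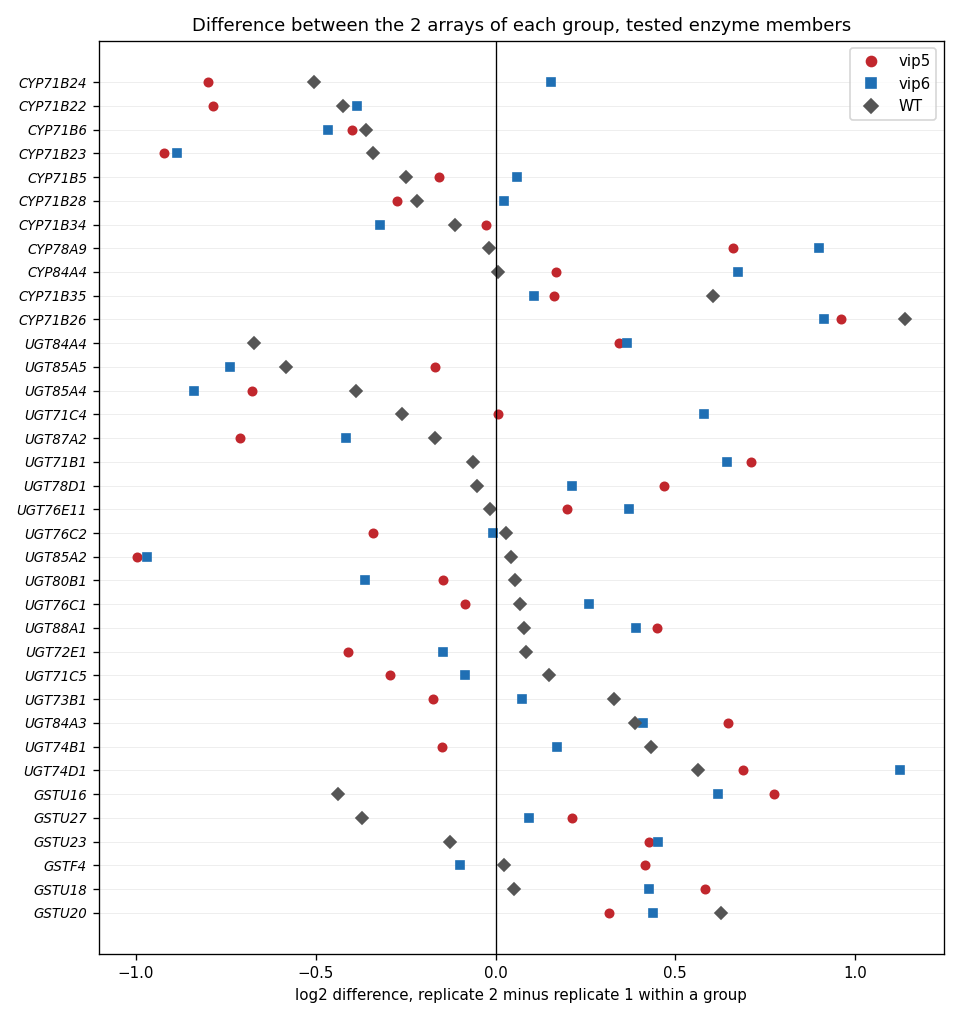
The log2 difference between replicate 2 and replicate 1 of vip5 (circles), vip6 (squares) and WT (diamonds) for the 36 tested enzymes, ordered by the WT value within P450s, UGTs and GSTs. The vip5 and vip6 points of CYP71B23, UGT85A2, UGT71B1 and UGT84A4 lie close together and apart from WT, while those of CYP71B26 and CYP71B6 lie near WT.

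The other 46 enzymes, 13 P450s, 27 UGTs and 6 GSTs, were too dim to test, with intensities between 0.8 and 112.5, and 24 of them stayed below the pseudocount on all 6 arrays. Among them were UGTs known to conjugate salicylate (UGT74F1, UGT76B1), auxin (UGT84B1, UGT84B2) and abscisic acid (UGT71B6), the monolignol UGTs UGT72E2 and UGT72E3, the phenolic UGTs UGT73C7, UGT78D3 and UGT84A1, and the P450 CYP79A2, which starts benzylglucosinolate synthesis. CYP51G2 and CYP71B27, annotated as transcribed pseudogenes, were also among them. UGT71C2 and GSTU26 were picked from the dim members after their values were seen. UGT71C2 had 5.6 and 6.1 on the vip5 arrays, 11.3 and 5.0 on the vip6 arrays, against 28.0 and 26.4 in WT. GSTU26 had 65.4 and 67.0 on the vip5 arrays, 59.4 and 40.5 on the vip6 arrays, against 112.5 and 77.3 in WT. In both, all mutant arrays were below WT, and UGT71C2 stayed below the pseudocount on every array. Others, picked likewise, lay above WT in vip5 or vip6. UGT71B5 had 46.5 and 45.3 on the vip5 arrays, against 30.1 and 11.7 in WT. UGT78D3 had 31.4 and 63.3 on the vip6 arrays, against 11.3 and 5.5 in WT. Of all 82 enzymes, dim ones included, 24 were apart downward and 7 upward in vip5, and 28 and 5 in vip6. Of all probe sets, 19.4% were apart downward and 18.8% upward in vip5, and 20.9% and 16.7% in vip6. With no background values in the table, whether such signals are above background is not known.

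Partner genes of these families were sparsely named. Of 53 listed loci for P450 reductases, glutathione metabolism, other GST classes, transporters, TGA factors and the phenylpropanoid, tryptophan, oxylipin and brassinosteroid pathways, 4 have a probe set that names 1 gene, and 0 of the 4 passed in limma in either mutant. The lambda class enzyme GSTL3 had 4496.9 and 4662.4 on the vip5 arrays, 4567.1 and 4325.2 on the vip6 arrays, against 3178.4 and 3770.3 in WT, with all mutant arrays above WT and log2 differences of 0.40 (limma adjusted p = 0.483) and 0.36 (adjusted p = 0.576). Of the glutathione reductases, GR had a log2 difference of 0.15 in vip5 and 0.26 in vip6, and GR1 had 0.20 in vip5 and 0.14 in vip6. HCT, a hydroxycinnamoyl transferase of the phenylpropanoid pathway, had -0.15 and -0.25.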

How the data were processed

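The authors deposited linear intensity values of every probe set on 6 arrays. As the values show, they were scaled: the mean of an array, less its lowest and highest 2%, is 500 to 500.1. The software, background and detection calls are not given in the sources used here. Groups and replicate numbers come from the sample titles.

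Values were tested as log2(intensity + 39.4), the pseudocount being the middle of the arrays' 25th percentiles, with no further normalization. The 14323 tested probe sets entered one limma fit (limma 3.58.1, R 4.3.3) of the 3 groups, two-sided, with 64 controls left out and 3 residual degrees of freedom before moderation. P-values were adjusted over all of them by Benjamini-Hochberg. The fit was also run on simulated arrays with errors independent between arrays. These lack the correlation by replicate number seen here, so they do not test the fit under it. The number of arrays limits the precision.

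Families and loci were matched through the platform annotation (13513 probe sets with 1 gene symbol, 503 with several, 8730 without an entry) to the TAIR10.1 gene table; 84 of 84 members matched. That table gave names and gene order only. Probe sets naming several genes, 5 with a symbol of these families, were left out.

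Members, lists and tests were chosen with earlier results of these data known. Named by rule were members past the threshold with or without a replicate term and those with the largest differences among groups that did not overlap. So were the brightest of each family and members of role lists. Other members given with values were named outside these rules, and only some are marked in the text. The unmarked ones include UGT85A2, UGT71B1, UGT85A5, UGT85A7, CYP71B22, CYP71B23, CYP71B35, GSTU16 and CYP71. Alternatives covered normalization, pseudocount, filter, variance model, arrays in the fit, replicate number, threshold and each array left out. Figures used matplotlib 3.10.9 in Python 3.11.15.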

Additional observations from a re-analysis of the deposited data

How the results depend on the processing

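The count of members past the threshold was 0 in all 3 comparisons and stayed at 0 under every alternative run, with 1 exception. The groups share replicate numbers, which the labels do not explain; differences between the numbers correlated over 14323 probe sets at 0.306 (vip5 and WT), 0.308 (vip6 and WT) and 0.655 (vip6 and vip5), and with 2 numbers this does not establish pairs. With the replicate number as a block, 1 member passed in vip5, UGT85A4 (limma adjusted p = 0.0306), which had 0.051 in vip6, where 2.19% and 1.77% of all tested probe sets passed. The block gave 313 probe sets in vip5, 253 in vip6 and 1 for vip6 against vip5, beside 11, 15 and 0 without it. With no filter on dim probe sets these counts were 2 in vip5 and 1 in vip6, with the stricter filter 7 and 7, with only the 2 groups compared 18 and 5, at an adjusted p of 0.10 34 and 39, and with the trended, robust variance 17 in vip5. With 1 array left out they lay between 0 and 18 in vip5 and between 0 and 5 in vip6.

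Among named members, UGT85A4, CYP71B24, CYP71B34, CYP84A4, GSTU18, GSTU20, UGT73B1, GSTU27 and UGT76C1 kept their direction against WT in both mutants under every alternative in which they were tested. So did CYP71B28, GSTF4, GSTU23, UGT71C5, UGT72E1 and UGT76C2. CYP59, CYP71B26, CYP71B5, CYP71B6, CYP78A9, UGT71C4, UGT74B1, UGT74D1, UGT78D1, UGT80B1, UGT84A3, UGT84A4 and UGT88A1 changed sign against WT in at least 1 mutant when 1 array was left out. The median of the tested P450s lay between -0.51 (without vip5 replicate 1) and -0.19 in vip5 and between -0.35 (without WT replicate 2) and -0.10 in vip6. That of the GSTs lay between -0.59 and -0.09 in vip5 and between -0.52 and -0.20 in vip6, and that of the UGTs between -0.10 and 0.04 in vip5 and between -0.24 and -0.05 in vip6. The causes of these changes were not tested. Without background values, how far the dim members stand above background is not known.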

Other observations

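UGT85A4 and the tau class genes GSTU23, GSTU22, GSTU21 and GSTU20 stand in one stretch of 14 genes on chromosome 1 in the TAIR10.1 gene table, 6 of which have a probe set naming 1 gene. The stretch was chosen after the values were seen. Its tested members UGT85A4, GSTU23 and GSTU20 lay below WT on all mutant arrays, with log2 differences of -1.00 in vip5 and -0.88 in vip6 for UGT85A4, -0.56 in vip5 and -0.30 in vip6 for GSTU23, and -0.64 in vip5 and -0.54 in vip6 for GSTU20. AT1G78280, the 1 other gene tested there, had 342.4 and 267.5 on the vip5 arrays, 389.9 and 337.2 on the vip6 arrays, against 353.8 and 307.8 in WT, with log2 differences of -0.11 in vip5 and 0.12 in vip6. The second vip6 array of GSTU23, at 120.9, lay just under the second WT array, at 122.0. GSTU22 and GSTU21 were too dim to test.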
